A study of Mus musculus with 2 samples.

Results

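The microRNAs described here are the 6 that lie inside the mouse Hox gene clusters and the 2 that lie in introns of the Slit genes. Mir10a, Mir10b, Mir196a-1, Mir196a-2, Mir196b and Mir615 form the HOX-cluster set, and Mir218-1 and Mir218-2 form the miR-218 set. All 8 were found by symbol in GENCODE M21 among 1973 miRNA loci counted, with or without reads. They were read in midbrain of B6NCrl mouse embryos at day 14.5 of gestation, in 1 group of 2 biological replicates with no treatment and no second tissue. The labels describe each sample as a single midbrain taken on its own day, but give the sex as pooled and 1 shared donor. The spread between the samples may therefore be partly technical. Sense reads of miRNA loci numbered 7302633 in replicate 1 and 3966727 in replicate 2, and CPM here is a count scaled to these totals.

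Hox genes are transcription factors that give cells of the hindbrain, spinal cord and trunk their position along the body axis, and the midbrain lies in front of their classical domain. The miRNAs between them are transcribed with the clusters: miR-10 sits beside Hox4 genes, toward the anterior end of the clusters, and miR-196 beside genes of the posterior trunk, where in the mouse it cleaves the Hoxb8 transcript. Slit proteins are axon guidance ligands of the Robo receptors, and miR-218, from their introns, is enriched in mouse motor neurons. The midbrain contains motor neurons of its own, those of the oculomotor nucleus.

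The mature sequences decide which of these loci can be told apart by sequencing, so the main arms are printed first, 5′ to 3′, with the seed (bases 2 to 8) in capitals. They are from RefSeq on assembly GRCm38.p6, which held mature arms of all 8 loci and hairpins of 7.
miR-10a-5p (chr11:96317186-96317208, plus strand): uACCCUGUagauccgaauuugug
miR-10b-5p (chr2:74726074-74726096, plus strand): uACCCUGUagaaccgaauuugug
miR-196a-5p (chr11:96265187-96265208 and chr15:102973365-102973386, plus strand): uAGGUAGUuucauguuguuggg
miR-196b-5p (chr6:52230129-52230150, minus strand): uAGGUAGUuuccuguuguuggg
miR-615-3p (chr15:103014969-103014990, plus strand): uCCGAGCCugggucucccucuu
miR-218-5p (chr5:48223966-48223986 and chr11:35616840-35616860, plus strand): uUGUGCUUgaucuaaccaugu

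The 8 loci carry 4 of these seeds. The miR-10 arms share ACCCUGU and differ at a single base outside the seed, U12A, counted from the 5′ end with the miR-10a base first. The miR-196 arms share AGGUAGU and differ by A12C, with the miR-196a base first. No mature miRNA from another locus in the RefSeq table carries the seed of miR-10-5p, miR-196-5p or miR-615-3p. The seed of miR-218-5p occurs in 1 other, miR-7002-3p, whose locus Mir7002 had 0 reads in replicate 1 and 1 read in replicate 2.

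Both families have relatives with similar letters that were far more abundant in these libraries, and their arms are shown for comparison, again with the seed in capitals.
miR-99a-5p (chr16:77598940-77598961, plus strand): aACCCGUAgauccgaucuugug
let-7g-5p (chr9:106178846-106178867, plus strand): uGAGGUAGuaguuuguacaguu
The seeds of miR-10 and miR-99a share their first 4 bases, ACCC, and those of miR-196 and let-7g share a run of 6 bases, AGGUAG, offset by a base. When all arms of the 8 loci were laid without gaps on 2200 other annotated miRNA genes, on both strands, no gene outside the set matched any arm exactly or with 1 substitution.

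Within the set the position is different. The arm of miR-218-5p, 21 bases, occurs unchanged in both Slit hairpins, printed here with that arm in capitals.
Mir218-1 hairpin (chr5:48223942-48224051, plus strand): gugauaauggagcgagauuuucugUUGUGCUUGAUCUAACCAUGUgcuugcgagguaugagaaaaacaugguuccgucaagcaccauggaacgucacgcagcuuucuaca
Mir218-2 hairpin (chr11:35616816-35616925, plus strand): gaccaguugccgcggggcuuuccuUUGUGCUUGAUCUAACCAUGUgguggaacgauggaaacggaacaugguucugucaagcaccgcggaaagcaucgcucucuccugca
The hairpins stay identical for 1 base past the 3′ end of the arm. A read of the 5p arm therefore names its locus where it runs 2 bases past that end or starts 1 base earlier, if those bases come from the hairpin. The 3p arms of the hairpins differ, and neither occurs exactly in another annotated miRNA gene. The miR-218-1-3p arm differs from the Mir218-2 hairpin at only 2 bases. In the files, reads that map to several places form a class of their own, 36.2% of all reads in replicate 1 and 36.9% in replicate 2, and are not assigned to genes. The counts of Mir218-1 and Mir218-2 thus leave out reads of the bare 5p arm and can hold 3p reads and longer 5p reads, which the files do not tell apart. The level of mature miR-218-5p is not measured by them.

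The same holds for miR-196a, whose 5p arm of 22 bases is common to hairpins on chromosomes 11 and 15, printed with that arm in capitals.
Mir196a-1 hairpin (chr11:96265164-96265265, plus strand): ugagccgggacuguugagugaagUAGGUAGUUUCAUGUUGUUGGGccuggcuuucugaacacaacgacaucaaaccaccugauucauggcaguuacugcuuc
Mir196a-2 hairpin (chr15:102973350-102973434, plus strand): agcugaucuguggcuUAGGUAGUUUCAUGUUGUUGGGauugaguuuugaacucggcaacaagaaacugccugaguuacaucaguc
The bases on either side of the arm already differ, so that a single extra base at either end names the locus, if it comes from the hairpin. Mir10a, Mir10b, Mir196b and Mir615 share no exact stretch of 20 bases with another annotated miRNA gene. The mismatches that the aligner allowed, not given in the sources used here, decide whether a miR-10 or miR-196b read could still be placed at its near twin.

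The HOX-cluster miRNAs lie at different depths of their clusters, in coordinates of assembly mm10. Mir10a (chr11:96317165-96317274) lies 0.993 kb upstream of Hoxb4 and outside any other annotated gene on its strand. Mir10b (chr2:74726070-74726137) lies in an intron of Hoxd4, intron 4 of 5 in the transcript that APPRIS marks as principal, and also within intron 1 of Hoxd3. Mir615 (chr15:103014910-103015001) lies in the single intron of the principal transcript of Hoxc5, an intron of 692 bases. The miR-196 genes lie deeper toward the posterior end. Mir196b (chr6:52230081-52230165, minus strand) lies between Hoxa10 and Hoxa9, 1.03 kb from the first, and overlaps exons of noncoding transcripts of Hoxa9. Mir196a-2 lies between Hoxc10 and Hoxc9, 1.46 kb from the first, and is spanned by an intron of a long noncoding transcript of Hoxc5. Mir196a-1 lies 6.19 kb upstream of Hoxb9 in no other gene on its strand. No further measured miRNA locus lies between the outermost genes of the 4 Hox clusters, and within Slit1 to Slit3 and Robo1 to Robo3 the only other measured locus, Gm24272 in Robo2, had no read.

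**Figure D1:**
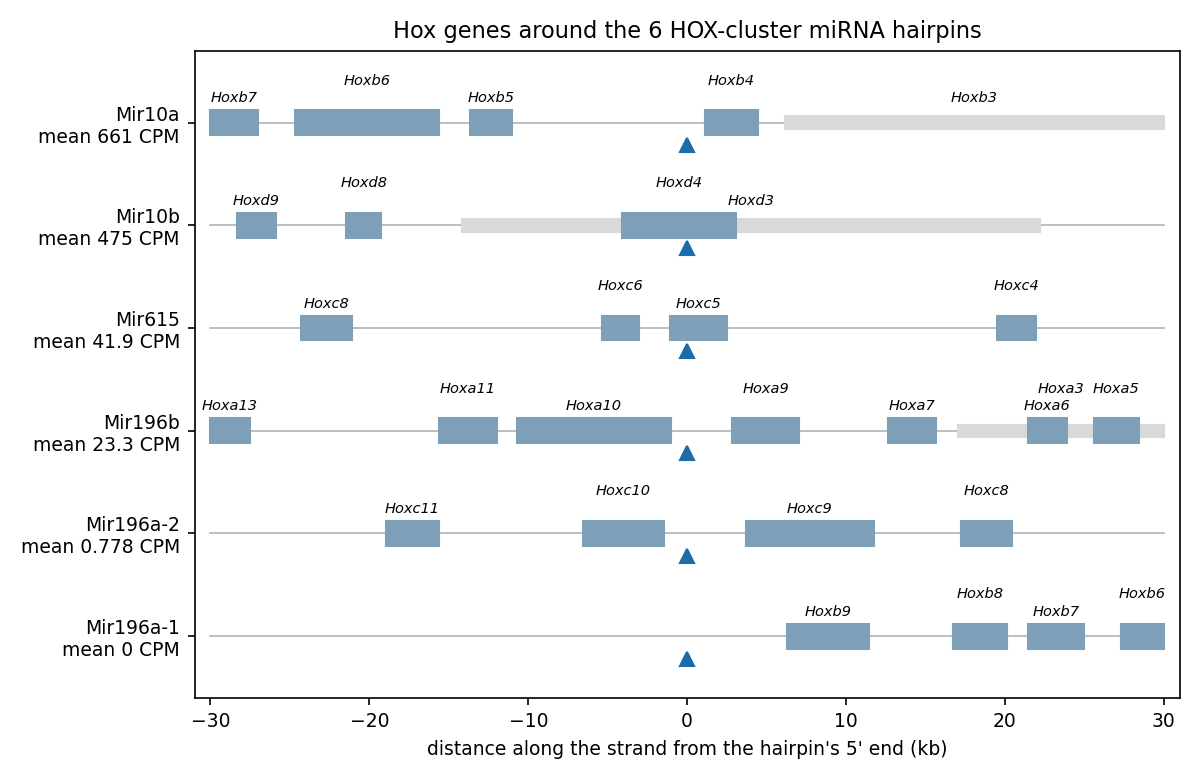
Position of the 6 HOX-cluster miRNA hairpins (triangles) relative to Hox genes, drawn along the strand of each hairpin as distance from its 5′ end in kb; boxes are principal transcripts, in pale grey where longer than 20 kb, and the mean level of each locus stands beside its name. The miR-10 loci, with 661 and 475 CPM, lie beside Hoxb4 and in Hoxd4, and the miR-196 loci, with at most 23.3 CPM, lie between Hox9 and Hox10 genes or upstream of Hoxb9.

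Both miR-218 loci lie in introns of their hosts. Mir218-1 lies in intron 14 of 35 of the Slit2-208 transcript, an intron of 4572 bases. No Slit2 transcript that spans it carried the principal mark used here, and their intron numbers run from 1 to 16. Mir218-2 lies in intron 14 of 35 of the principal Slit3 transcript, an intron of 9571 bases. Both are on the strand of the host.

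HOX-cluster miRNAs were present in the midbrain libraries, and nearly all of their reads came from the 2 miR-10 genes. Of the 8 loci 6 were detected, meaning at least 10 sense reads in each replicate, against 20.1% of all 1973 loci. The median level over all 1973 was 0 CPM. The 6 were 4 HOX-cluster loci and both miR-218 loci. Together the 8 loci took 0.107% of the sense reads of replicate 1 (exact Clopper-Pearson 95% interval 0.105 to 0.109) and 0.152% of those of replicate 2 (0.149 to 0.156). Mir10a and Mir10b made up 89.0% of the reads of the set in replicate 1 and 86.7% in replicate 2. Intervals cover counting error only, since PCR copies are not independent molecules. In whole tissue, few cells with much of a miRNA and many cells with little of it cannot be told apart.

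Mir10a (ENSMUSG00000065519.1) was the highest, with 3939 reads in replicate 1 and 3107 in replicate 2, or 539 and 783 CPM. Its mean was 661 ± 172 CPM (SD, n = 2), place 111 among all loci. Mir10b had 3017 and 2133 reads, or 413 and 538 CPM, a mean of 475 ± 88.1 CPM and place 130. The higher library of Mir10b, at 538 CPM, stayed just under the lower library of Mir10a, at 539 CPM. Within each library the order was also the same. Mir10a exceeded Mir10b 1.31-fold in replicate 1 (exact 95% interval 1.24 to 1.37) and 1.46-fold in replicate 2 (1.38 to 1.54). No read fell on the opposite strand of either locus.

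Mir615 and Mir196b were far lower than the miR-10 genes. Mir615, the intronic Hoxc5 miRNA, had 227 reads in replicate 1 and 209 in replicate 2, or 31.1 and 52.7 CPM, with a mean of 41.9 ± 15.3 CPM and place 254. Mir196b, in the posterior part of the Hoxa cluster, had 125 and 117 reads, or 17.1 and 29.5 CPM, with a mean of 23.3 ± 8.75 CPM and place 279. Mir615 stood above Mir196b in both libraries, and their ranges did not overlap.

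The miR-196a loci were near or at 0. Mir196a-2 had 4 reads in each library, 0.548 CPM in replicate 1 (exact Poisson 95% interval 0.149 to 1.40) and 1.01 CPM in replicate 2 (0.275 to 2.58), and 1 further read on the opposite strand in replicate 1. Mir196a-1 had no read in either library. For reads specific to that locus, the exact Poisson 95% interval of a count of 0 reaches 0.505 CPM in replicate 1 and 0.930 CPM in replicate 2. Reads of the bare 5p arm fall outside this limit, because they match both loci. Mir196b exceeded Mir196a-2 31.2-fold in replicate 1 (95% interval 11.9 to 116) and 29.2-fold in replicate 2 (11.1 to 109). That contrast sets a locus with an arm of its own against one without, and the part of shared reads in it was not tested.

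Among the miR-218 loci, Mir218-2 of Slit3 was the higher, with 341 reads in replicate 1 and 363 in replicate 2, or 46.7 and 91.5 CPM. Its mean was 69.1 ± 31.7 CPM, place 229. Mir218-1 of Slit2 had 162 and 109 reads, or 22.2 and 27.5 CPM, with a mean of 24.8 ± 3.74 CPM and place 274. The ratio of Mir218-2 to Mir218-1 was 2.10 in replicate 1 (95% interval 1.74 to 2.55) and 3.33 in replicate 2 (2.68 to 4.16). Both libraries put Mir218-2 first, by amounts whose intervals do not overlap. Both counts leave out reads of the bare 5p arm, so the ratio is one of locus-specific reads only. The HOX-cluster set exceeded the miR-218 set 14.5-fold in replicate 1 (13.3 to 15.9) and 11.8-fold in replicate 2 (10.7 to 13.0). As with miR-196a, the shared 5p reads are missing from the miR-218 side of that ratio.

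**Figure D2:**
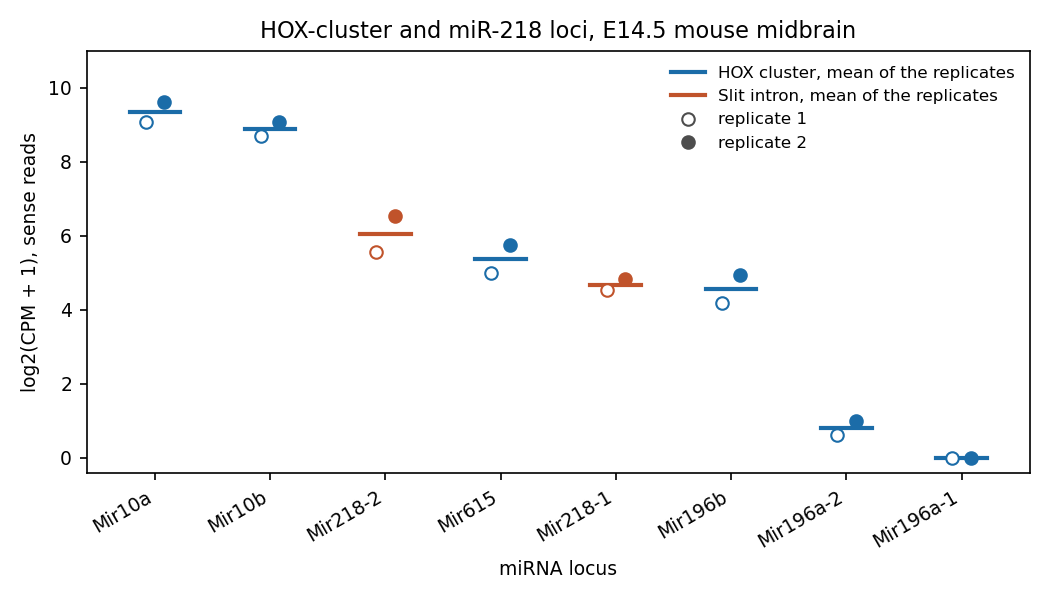
Level of the 8 loci as log2(CPM + 1) of sense reads in replicate 1 (open circles) and replicate 2 (filled circles), with bars at the mean of both, HOX-cluster loci in blue and Slit-intron loci in orange. Mir10a and Mir10b stand above all others, 4 loci lie between 17.1 and 91.5 CPM, and replicate 2 is the higher at each locus with reads.

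The order of mean levels was Mir10a, Mir10b, Mir218-2, Mir615, Mir218-1, Mir196b, Mir196a-2 and Mir196a-1. Mir218-2 and Mir615 overlapped across the replicates, with means that differed by 27.2 CPM against an SD of 31.7 CPM. Within each library Mir218-2 was the higher, by 15.6 CPM in replicate 1 and 38.8 CPM in replicate 2, and the Poisson intervals did not overlap there. Mir218-1 and Mir196b were not separated, with a difference of 1.52 CPM against an SD of 8.75 CPM, and they changed places between the libraries. The other neighbours did not overlap between replicates, although Mir10a and Mir10b differed by 186 CPM against an SD of 172 CPM.

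By reads assigned to each locus, only the miR-10 genes lay above the middle of all detected loci. The median mean level over 397 detected loci was 120 CPM, and the 6 detected loci of the set had a median of 55.5 CPM. Of the detected loci 72.0% were lower than Mir10a and 67.3% were lower than Mir10b, whereas 42.3% were lower than Mir218-2 and 29.7% were lower than Mir196b. The loci nearest to Mir10a in level, by distance of log2(CPM + 1) over both libraries, were Mir25 (680 ± 125 CPM) and Mir1251 (709 ± 146 CPM). Mir384 and Mir374b were nearest to Mir10b, Mir7689 and Mir212 to Mir615, and Mir429 and Mir1930 to Mir196b. Mir3093 and Mir3081 were nearest to Mir218-1. For Mir218-2 they were Mir873a, at 44.8 CPM in replicate 1 and 83.2 CPM in replicate 2, and Mir3059, at 60.5 and 105 CPM. With 2 libraries this likeness is one of level and says nothing of a shared pattern.

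The relatives of miR-10 by sequence were all higher than the miR-10 genes. The miR-99, miR-100 and miR-125 genes lie outside the Hox clusters. Mir99a, the most abundant locus of the libraries, exceeded Mir10a 399-fold in replicate 1 and 273-fold in replicate 2. Mir125b-2, the lowest relative by assigned reads at 2759 ± 210 CPM, still exceeded Mir10a 4.28 ± 0.797-fold and Mir10b 5.86 ± 0.644-fold. Multiply mapped reads are left out of these counts, and arms shared among the relatives were not examined. The ratios therefore compare assigned reads of loci, not levels of mature miRNAs.

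**Figure D3:**
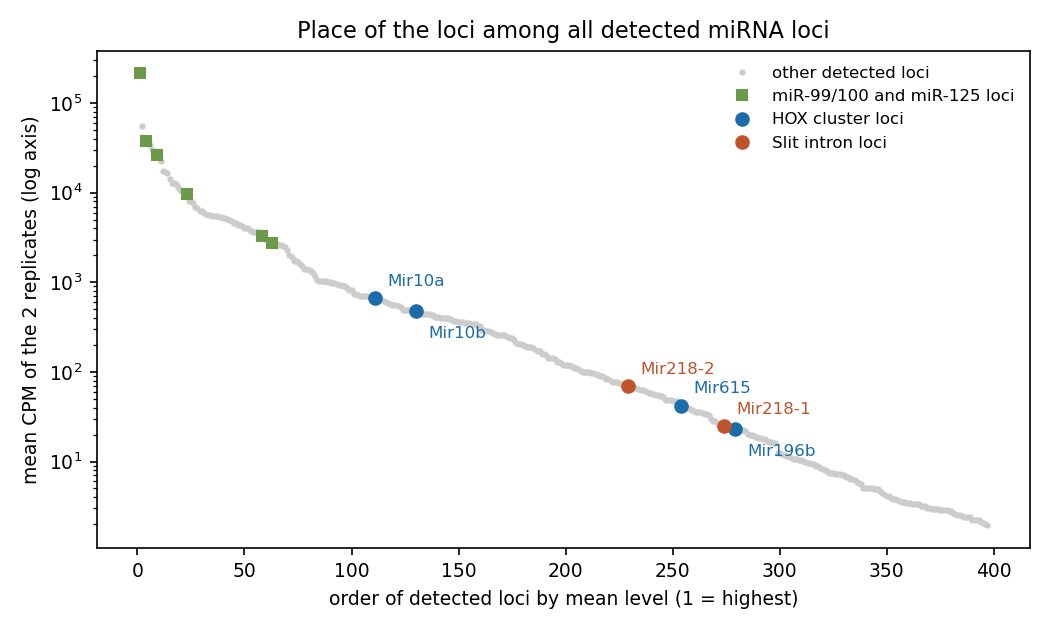
Mean CPM of both replicates (log axis) for the 397 detected loci in descending order, with HOX-cluster loci in blue, Slit-intron loci in orange and the miR-99/100 and miR-125 loci as green squares. Mir10a and Mir10b take places 111 and 130, below all 6 green squares, and the other 4 loci lie between places 229 and 279.

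Every detected locus of the set was higher in replicate 2. On the log2(replicate 2/replicate 1) scale after TMM scaling, Mir218-2 stood at 0.88, Mir196b at 0.70, Mir615 at 0.67, Mir10a at 0.45, Mir10b at 0.29 and Mir218-1 at 0.22. Their median was 0.56, beside 0.01 over all detected loci, of which 50.4% were higher in replicate 2. Mir218-2, Mir196b and Mir615 differed more than 1.5-fold, which 16.6% of detected loci did in either direction and 7.05% did toward replicate 2. As large a difference as that of Mir218-2 was found at 5.79% of detected loci, and one as large as that of Mir218-1 at 52.9%.

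Counting error alone was exceeded at 5 of the 6 loci by an exact two-sided binomial test with Benjamini-Hochberg adjustment over 397 loci, all 5 higher in replicate 2. The same test called 53.9% of detected loci, 24.4% as higher in replicate 2, and it compares 2 libraries, not conditions. The adjusted exact p was 5.16e-37 for Mir10a, 3.71e-15 for Mir218-2, 5.33e-12 for Mir10b, 4.53e-06 for Mir615 and 0.000554 for Mir196b. Mir218-1 did not pass, with an adjusted exact p of 0.324. Among all detected loci 97 were called higher and 117 lower in replicate 2, and with plain library totals 127 were called higher and 90 lower, with the same 5 of the 6 loci higher. With a spread between animals assumed, in edgeR's exactTest at a fixed dispersion of 0.05, 5 of 397 loci passed and 0 of the 6. None of the 6 had an unadjusted exact p under 0.05 there, against 16 of all loci.

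Markers of other cells also moved between the libraries, most of them the other way. The mesenchyme and meninges list, with 5 of 8 loci detected, had 5993 CPM in all in replicate 1 and 3875 CPM in replicate 2. Mir143 alone gave 5423 and 3694 CPM of these sums. All 5 detected loci were called lower in replicate 2, with a median log2 ratio of -1.91. Vessel loci, of which Mir143 and Mir145a also belong to that list, had 32566 CPM in replicate 1 and 21781 CPM in replicate 2, with 3 of 3 called lower. Red cell loci together had 486 CPM in replicate 1 and 153 CPM in replicate 2, and 2 of 3 were called lower. The summed levels of these lists were thus lower in replicate 2, where the detected HOX-cluster and miR-218 loci were higher, and their part in the result was not tested.

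Skeletal muscle and neuron lists showed smaller differences in summed level than the mesenchyme, vessel and red cell lists. Muscle loci together had 40.5 CPM in replicate 1 and 52.2 CPM in replicate 2, with 4 of 8 detected and 0 of 4 called by the binomial test with adjustment. The detected muscle loci had a median log2 ratio of 0.29, the same as Mir10b, although Mir1b stood at -0.06. Mir133a-1 and Mir133a-2 had no assigned read. Multiply mapped reads are left out of these counts too, and arms shared among the listed loci were not examined. The muscle sum and its zeros therefore do not measure the mature muscle miRNAs. Mir206, made in skeletal muscle, led that list with 22.9 and 30.0 CPM, about the level of Mir218-1. Of 12 neuron loci 11 were detected, 4 called higher and 1 lower in replicate 2, with a median log2 ratio of -0.01. Their summed level was 37297 CPM in replicate 1 and 42311 CPM in replicate 2. This sum too is one of assigned reads and does not measure the mature neuronal miRNAs. Neither list was set against the HOX-cluster and miR-218 loci by a test.

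**Figure D4:**
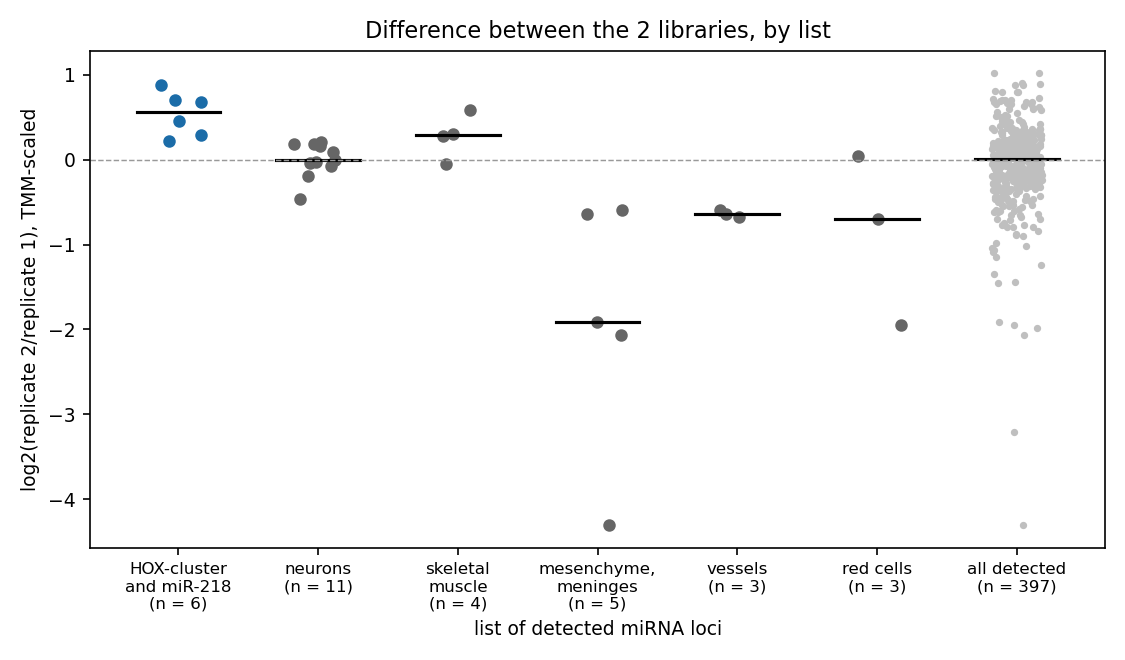
log2(replicate 2/replicate 1) after TMM scaling for detected loci of each list, with a black line at the median; the last column holds all 397 detected loci. The 6 HOX-cluster and miR-218 loci lie between 0.22 and 0.88, and the muscle loci have a median of 0.29. Neuron loci scatter around 0, and mesenchyme, vessel and most red cell loci lie below 0.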

How the data were processed

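MicroRNAs were sequenced from total RNA of embryonic midbrain, and the labels give a size range under 30 nt. The authors deposited raw read counts per miRNA gene for both strands, the annotated strand and the opposite strand. Per the deposited text files, counting used mm10 and annotation M4. Its aligner was not given in the sources used here. Unmapped, multiply mapped and unassigned reads (57.7% to 58.3% of each library) were left out of totals.

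Identifiers were matched without version to GENCODE M21, on the same assembly; for Mir10b and Mir196a-2 the version differs, so their limits may too. Of 1973 loci 1894 matched. CPM used sense totals. Library ratios used TMM in edgeR 4.0.16 and exact binomial tests (scipy 1.17.1). The binomial test was tried on simulated counts with counting error only and plain library totals. Such counts cannot show how it behaves where animals differ. Alternatives were other minimums, totals, scalings, strands, a fixed dispersion and each replicate left out. DESeq2 1.42.0 gave size factors only. The loci named were the 8 members, the 2 nearest loci in level and loci in the same gene clusters. Members and lists were chosen with earlier results of these data known. Mir1a-2, Mir126b and Mir9-1 of the lists were not analysed here. Lists of neural progenitor (2 of 3 loci detected) and cranial sensory cell (3 of 3) miRNAs were summed by assigned reads. They had 4671 and 2841 CPM in replicate 1 and 3753 and 2726 CPM in replicate 2.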

Additional observations from a re-analysis of the deposited data

How the results depend on the processing

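The set had 6 detected loci with either replicate left out and under each other minimum except that of 3 reads, which added Mir196a-2 as the seventh. Its share of sense reads, 0.130% ± 0.0320, ranged from 0.107% to 0.152% with a replicate left out. It was 0.165% without Mir99a in the total and 0.0535% of all reads, changes that follow from the total used. Under TMM totals, DESeq2 size factors and unstranded counts all 8 levels stayed within 1 SD. With a replicate left out, the level of Mir218-2 ranged from 46.7 to 91.5 CPM and that of Mir10a from 539 to 783 CPM. The count of loci that differ between the libraries stayed between 200 and 223, except for 5 at a fixed dispersion of 0.05, where a spread between animals is assumed. Each of the other settings of that test called 5 loci of the set, all higher in replicate 2, beside 93 to 127 higher over all loci. The number tested changed with the minimum. At 100 reads in each replicate, 200 of 274 loci were called in either direction, against 214 of 397 in the main setting. No paired analysis was possible because there is 1 group. Depth limits Mir196a-1 and Mir196a-2, and shared reads limit both of these and miR-218.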
